A study of Drosophila melanogaster
Gallus gallus with 8 samples.

Results

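The regions described here are the long stretches of the chicken genome in which no peak of DNA:RNA hybrid signal was called in wild type cells. They were chosen from the positions of the wild type peaks on chromosomes 1 to 33 and Z, as every interval of at least 100 kb between the end of a peak and the start of its neighbour. Of 40497 such intervals, 1445 (3.57%) met this length. Their number and lengths therefore describe the wild type list that chose them, whereas peaks called in *primpol* cells were not used in the choice.

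The hybrids were immunoprecipitated and sequenced (DRIP-seq) in DT40, a B-cell line of chicken. The groups used were PrimPol deficient DT40 cells, called *primpol*, and wild type DT40 cells, with 2 DRIP libraries and 1 input library each. All cultures were mixed with *Drosophila* S2 cells before extraction, and hybrids were captured with the S9.6 antibody. An RNase H-treated library of each genotype was not analysed here. How many clones stand behind the *primpol* line is not given in the labels.

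An R-loop forms when a transcript anneals to its template strand and leaves the other DNA strand unpaired. R-loops are commonest over the starts and ends of transcribed genes, so that peaks tend to follow genes, while sequence to which reads cannot be mapped uniquely gives no peak whatever it holds. The chicken karyotype combines a few large chromosomes, in which genes are widely spaced, with many microchromosomes, which are small, GC-rich and dense in genes. Z is the sex chromosome present in both sexes. PrimPol can both prime and extend DNA, and allows replication to resume beyond an obstacle in the template.

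Each genotype was represented by a single list of peaks, to which both of its DRIP libraries were assigned. No value below has a replicate error, no p-value is given, and the 95% intervals account for counting error alone, as if peaks were independent of each other. On the chromosomes examined there were 47337 *primpol* and 40529 wild type peaks. The *primpol* input was deeper than that of wild type, at 30302032 against 23107894 tags, and most peaks were weak, with a median −log10 q-value of 1.57 in *primpol* and 1.51 in wild type. A stretch without a peak is thus one without a call at this depth, and is not shown to lack hybrids. Gene content and sequence of the stretches were not analysed here. Coordinates are those of Galgal5.

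The first question was how much of the genome lay in such stretches and how long they were. Together the 1445 stretches covered 247 Mb, or 24.5% of the 1008 Mb between the first and last wild type peak of each chromosome. Their median length was 138 kb and the interquartile range 116 to 181 kb, whereas the median over all wild type intervals was 11.5 kb with an interquartile range of 3.14 to 28.6 kb. There were 602 stretches of at least 150 kb, 280 of at least 200 kb, 101 of at least 300 kb and 25 of at least 500 kb. Only 2 were longer than 1000 kb, both of them on chromosome Z. At the threshold, the shortest stretches measured 100.03 and 100.08 kb on chromosomes 14 and 9 and 100.09 kb on chromosome 9. The longest intervals that fell short were 99.98 and 99.92 kb on chromosome 14 and 99.93 kb on chromosome Z.

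Long stretches were more frequent than an even scatter of peaks would leave. If the same wild type peaks were spread uniformly over the span of each chromosome, 943 stretches covering 134 Mb would be expected, so that the observed number was 1.53 times and the observed length 1.84 times as large. The excess grew with length. At 200 kb or more there were 280 stretches against 96.4 expected, and at 500 kb or more there were 25 against 0.624. The *primpol* list showed the same form, with 1247 intervals of at least 100 kb (2.64% of its intervals) against 658 expected.

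**Figure D1:**
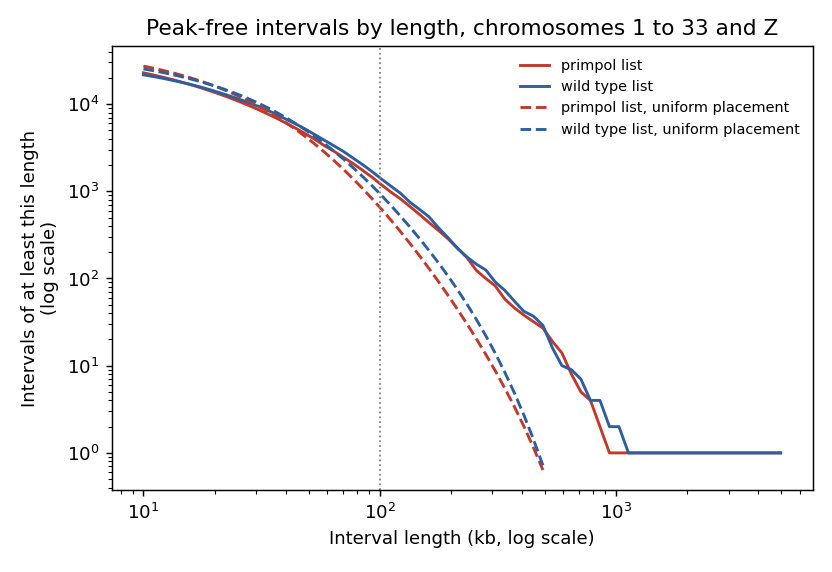
Number of peak-free intervals (vertical axis, log scale) of at least a given length in kb (horizontal axis, log scale) in the *primpol* list (red) and the wild type list (blue). Solid lines are observed and dashed lines are calculated for uniform placement on each chromosome, drawn down to 0.5 intervals, and the dotted line marks 100 kb. In wild type the observed number is below the calculated one at 10 kb (21638 against 25296) and above it at 70.1 kb (2873 against 2353), and the distance widens further beyond the dotted line.

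At the minimum length of 100 kb the excess in number was not shared by all chromosomes. Of 29 chromosomes on which at least 1 stretch was expected, 23 held more than expected. On chromosomes 1 to 5 there were 528 stretches, 2.99 times the 177 expected, and chromosome 2 stood highest among these with 62 against 9.91. Chromosomes 6 to 10 held 268 (1.64 times) and chromosomes 11 to 15 held 199 (1.38 times). On chromosomes 16 to 33 the 222 stretches were close to the 192 expected. Chromosome Z held 228, fewer than the 267 expected, although their summed length of 52.9 Mb exceeded the expected 44.1 Mb. Among longer stretches Z had an excess too, with 84 against 57.6 expected at 200 kb or more and 8 against 0.573 at 500 kb or more. Off Z these were 196 against 38.8 and 17 against 0.0516. Where peaks are denser, 100 kb is longer relative to their usual spacing, so these ratios do not compare chromosomes at an equal relative length. Without Z the observed number was 1.80 times that expected.

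The share of a chromosome taken up by stretches was mostly larger on smaller chromosomes, with low values also on the small chromosomes 20 (28.4%) and 33 (28.9%). It was 5.49% on chromosome 2 and 12.6% on chromosome 1, compared with 57.9% on chromosome 17, 59.0% on chromosome 26 and 88.6% on chromosome 16, of which only 0.595 Mb lay between the first and last wild type peak. Over groups of chromosomes it was 12.5% for 1 to 5, 30.5% for 6 to 10, 39.4% for 11 to 15 and 45.3% for 16 to 33. The density of wild type peaks fell in the same order, at 49.8, 32.2, 26.9 and 23.8 per Mb. Chromosomes 30 and 32 held 1 and 5 wild type peaks and no stretch.

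Chromosome Z had 64.7% of its span in stretches, second to chromosome 16, and 15.1 wild type peaks per Mb. It supplied 15.8% of all stretches and 21.4% of their bases, and its median stretch was 169 kb long, against 133 kb on the other chromosomes. Input coverage was lower on Z as well. The local background of peaks (lambda, derived from the input), relative to the median of the list, was 0.494 at *primpol* and 0.522 at wild type peaks on Z, compared with 1.03 and 1.017 on chromosomes 1 to 5. The part of coverage in the number of stretches on Z was not tested.

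**Figure D2:**
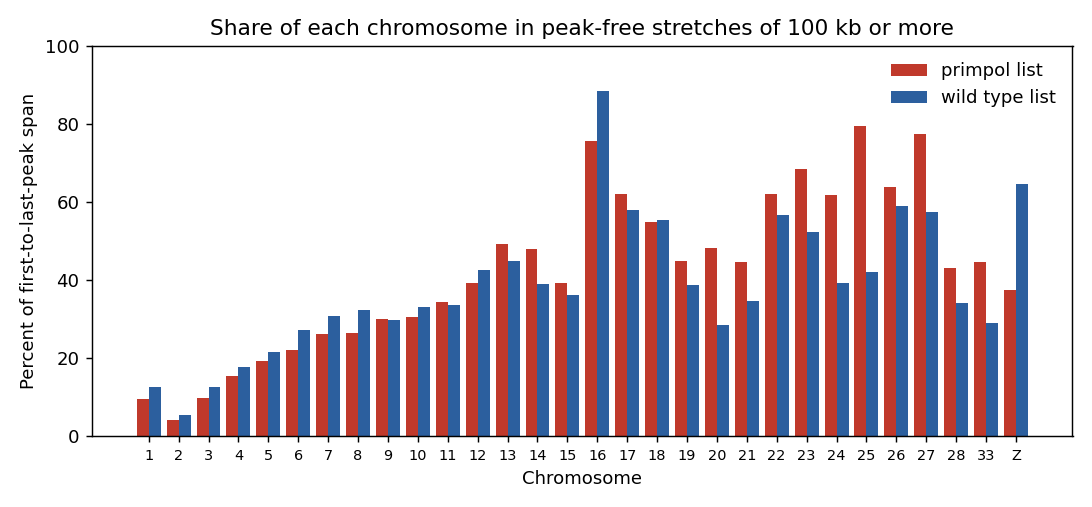
Percent of the span between the first and last peak (vertical axis) that lay in peak-free stretches of 100 kb or more on each chromosome with a wild type stretch (horizontal axis), in the *primpol* list (red) and the wild type list (blue). On chromosome Z the *primpol* bar stands at 37.5% and the wild type bar at 64.7%, whereas on chromosome 25 they stand at 79.5% and 42.1%.

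The 10 longest stretches were on chromosomes Z, 4, 5, 27, 22 and 11. The longest lay at 73224509 to 78515660 on chromosome Z and spanned 5291 kb, more than 5 times the next. It held 9.99% of all stretch bases on Z. The wild type peak at its left end was 190 bp wide with a height (mean fragment pileup) of 9.38, and the peak at its right end was 577 bp wide with a height of 18.9, among the highest 10% of the list. Only 2 *primpol* peaks lay within it, at 73314933 to 73315390 and 73318120 to 73318411, both less than 100 kb from its left end. To the right of these, 5197 kb were free of peaks in both lists.

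The next in length, of 1033 kb, was at 80051365 to 81084304 on Z and contained 4 *primpol* peaks, again less than 100 kb from an end, which left 933 kb free in both lists. Chromosome 4 contributed a stretch of 876 kb at 207897 to 1083804, close to its first base, with 1 *primpol* peak. A second stretch on chromosome 4, at 18838213 to 19560993 (723 kb), held 4 *primpol* peaks, the first of them 593 kb from its start. Both ends of that stretch were set by wild type peaks of 232 bp, with heights of 10 and 9.88 and without a *primpol* partner. On chromosome 5 the stretch at 5631043 to 6489105 (858 kb) had 3 *primpol* peaks, the first of them 807 kb from its start.

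Chromosome 27 held a stretch of 748 kb at 266107 to 1014385 that no *primpol* peak touched. Chromosome 22 held 743 kb at 2917809 to 3660382 with 2 *primpol* peaks. The peak at 3527517 to 3527735 had a fold enrichment of 3.66 on a relative lambda of 0.432, about the lowest level among the *primpol* peaks named here. The stretches ranked 8 and 9 were again on Z, at 8062386 to 8749946 (688 kb) with 2 *primpol* peaks and at 6423499 to 7074742 (651 kb) with 8. The last of the 10 was at 2708022 to 3323353 on chromosome 11 (615 kb), and no *primpol* peak lay within it. Over all 10 stretches there were 26 *primpol* peaks in 12.2 Mb, or 2.13 per Mb.

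**Figure D3:**
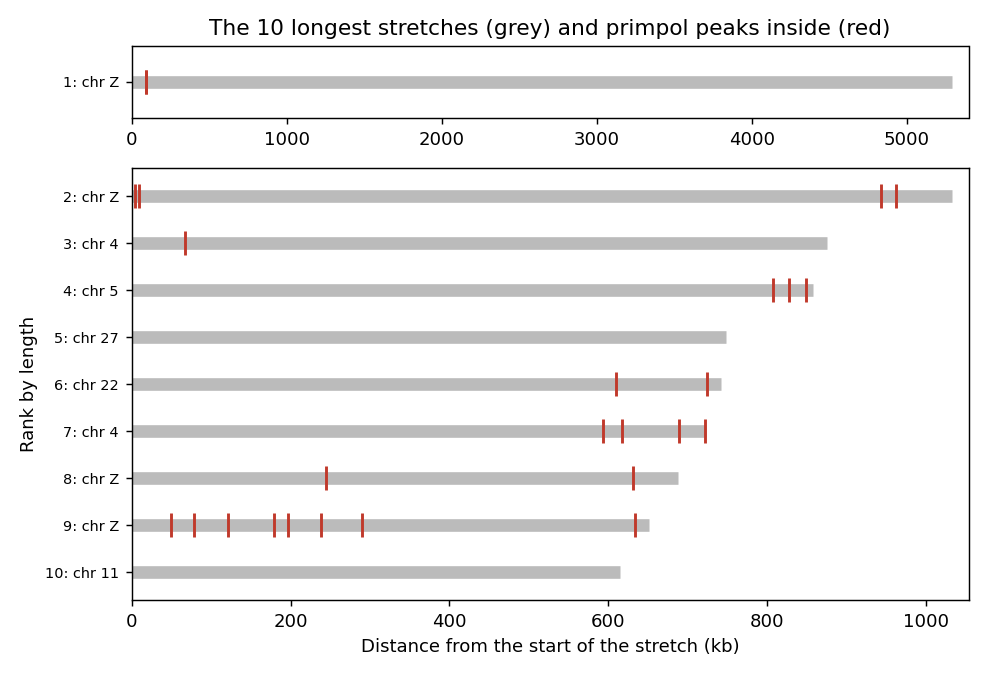
The 10 longest stretches (grey bars, ranked by length downwards) against distance from their start in kb, with a separate scale for the longest. Red marks are *primpol* peaks lying wholly inside, which number 2 in the longest stretch, 8 in that ranked 9 and none in those ranked 5 and 10.

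Some stretches followed each other directly. In 129 places at least 2 stretches were separated by no more than a lone wild type peak, and these runs took in 296 stretches (20.5%). The share was 38.6% on Z and 17.1% elsewhere. However, Z held 228 stretches among only 1235 wild type peaks, whereas over all chromosomes 3.57% of the intervals were stretches. Stretches on Z thus adjoin more often by their number alone, and the share to be expected from this was not calculated. The longest run comprised 6 stretches at 66509689 to 68126466 on Z, where 1617 kb contained 5 wild type peaks, each between neighbouring stretches, and 20 *primpol* peaks inside the stretches. Off Z the longest was a run of 5 at 736849 to 2027341 on chromosome 18, with 4 *primpol* peaks inside. Along Z the share of bases in stretches was lowest between 30 and 40 Mb, at 51.9%, and highest between 70 and 80 Mb, at 81.3%.

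The wild type peaks that bounded the stretches were somewhat lower and mostly narrower than other wild type peaks, but not lower in fold enrichment over all chromosomes. There were 2723 of them, 167 of which lay between stretches on both sides. Within their own chromosomes their median height percentile was 41.3, against 50.7 for the other peaks. Their median width was 679 bp, against 808 bp, but on chromosomes 16 to 33 it was 688.5 bp, against 675 bp. Their median fold enrichment was 2.62 against 2.54 over all chromosomes, 2.57 against 2.54 off Z and 2.98 against 2.99 on Z. A −log10 q-value under 1.3 was found for 27.6% of them and 26.0% of the others. A *primpol* peak overlapped 57.95% of the bounding peaks, with a 95% Wilson interval of 56.1 to 59.8%. This was below the 70.3% (69.8 to 70.7%) of the other peaks and the 69.4% of all wild type peaks on these chromosomes. The difference was found on chromosomes 1 to 5 (62.2 against 72.2%), 6 to 10 (53.1 against 66.1%) and 11 to 15 (51.7 against 65.1%). On chromosomes 16 to 33 (49.5 against 52.4%) and on Z (67.4 against 73.01%) the bounding peaks had the lower share too, but the intervals overlapped. Such overlap does not show that a difference is absent.

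The second question was what the *primpol* list held inside these stretches. Of the 47337 *primpol* peaks, 2783 (5.88%) lay wholly inside a stretch, and 894 others reached across an end. The *primpol* peaks inside are by construction peaks without a wild type partner, and they made up 13.9% of the 20065 such peaks (42.4% of the list). Their density was 11.3 per Mb (95% Poisson interval 10.9 to 11.7), compared with 58.5 per Mb (57.95 to 59.04) in the rest of the span. The inside density was 0.193 times that of the rest (0.185 to 0.2002). *Primpol* peaks covered 0.920% of the stretch bases. The same order was found on each of the 30 chromosomes with stretches, with the interval of the ratio below 1 on all 30. When every chromosome was given the *primpol* density of its own remainder, 12561 peaks were expected inside, and the observed number was 0.222 times that. The stretches, empty of wild type peaks by the rule, thus held fewer *primpol* peaks per Mb than the rest of the span.

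The rest of the span includes *primpol* peaks that share their place with a wild type peak, which stretches cannot hold. Peak-free intervals of other lengths gave a closer comparison, and against those of 10 to 100 kb the ratio of densities was 0.483. *Primpol* peaks inside wild type intervals numbered 26.3 per Mb (25.8 to 26.8) at 10 to 50 kb and 18.5 per Mb (17.9 to 19.02) at 50 to 100 kb. The density was 12.96 per Mb (12.4 to 13.5) in stretches of 100 to 200 kb and 8.37 per Mb (7.78 to 8.99) in those of at least 200 kb. The decrease was therefore gradual and no step was seen at 100 kb. It continued among the longer stretches, down to 3.70 per Mb (3.003 to 4.51) at 300 kb or more off Z.

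**Figure D4:**
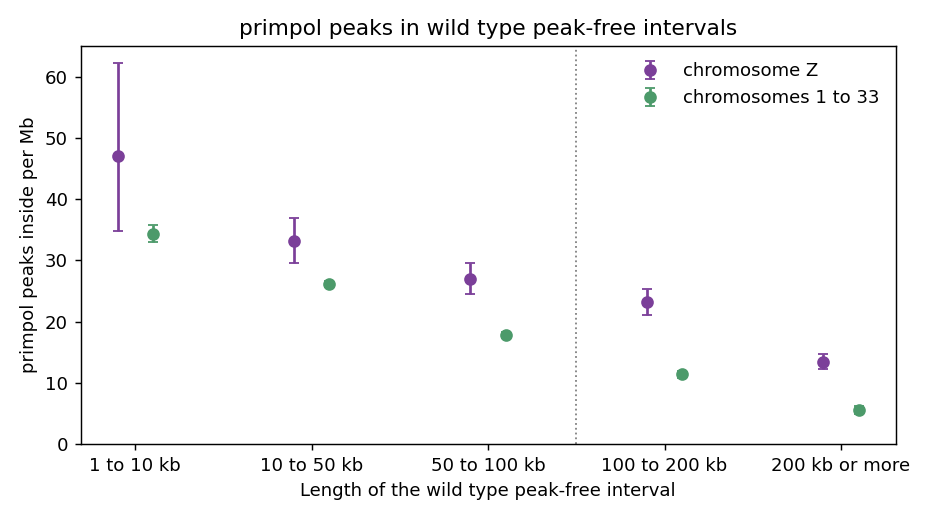
*Primpol* peaks lying wholly inside wild type peak-free intervals, per Mb (vertical axis), by length of the interval (horizontal axis), on chromosome Z (purple) and on chromosomes 1 to 33 (green). Bars are 95% Poisson intervals and the dotted line marks 100 kb; at 100 to 200 kb the density is 23.1 on Z and 11.4 on the other chromosomes, and in both it falls from the class of 1 to 10 kb upward.

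Chromosome Z differed from the others inside its stretches too. It held 909 of the *primpol* peaks inside, which were 35.6% of its own 2553 *primpol* peaks, whereas the other chromosomes had 1874 of 44784 (4.18%). The density in Z stretches was 17.2 per Mb (16.1 to 18.3), the highest of any group of chromosomes. It was 13.4 per Mb on chromosomes 1 to 5, 9.59 on 6 to 10, 7.41 on 11 to 15 and 4.57 on 16 to 33. Leaving out the longest stretch raised the value for Z to 19.03 per Mb. Relative to the remainder of the same chromosome the ratio was 0.302 on Z (0.278 to 0.327) and between 0.150 and 0.207 in the other groups. That remainder includes shared peaks, which stretches cannot hold, and their part differed. Outside stretches, 820 *primpol* peaks were shared and 824 partnerless on Z. These numbers were 20957 and 13383 on chromosomes 1 to 5, and 1101 and 389 on 16 to 33. The ratios therefore do not compare Z with the other groups on equal terms.

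At least 1 *primpol* peak lay inside 1042 of the 1445 stretches (72.1%, Wilson interval 69.7 to 74.4%). Over wild type intervals of all lengths this held for 31.1%, but most of those are short and have little room for a peak. The share was 91.2% on Z, 77.1% on chromosomes 1 to 5 and 49.5% on chromosomes 16 to 33. The median stretch held 1 *primpol* peak overall and 3 on Z. There were 137 stretches with 5 or more, 74 of them on Z, and these accounted for 954 of the peaks inside. The remaining 403 stretches held none. They covered 62.8 Mb and had a median length of 130 kb, against 140 kb for those with a peak. In 229 of them no *primpol* peak touched the stretch even at its ends.

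**Figure D5:**
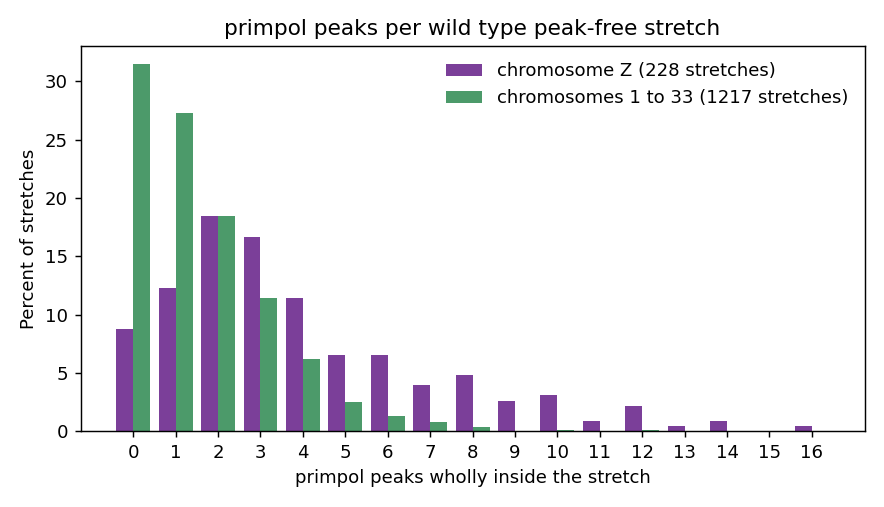
Percent of stretches (vertical axis) by the number of *primpol* peaks lying wholly inside (horizontal axis), for 228 stretches on chromosome Z (purple) and 1217 on chromosomes 1 to 33 (green). No *primpol* peak lay inside 20 stretches on Z and 383 on the other chromosomes, and the highest number was 16 on Z and 12 elsewhere.

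The 4 stretches with the most *primpol* peaks were all on Z, and the next place was shared by 6 stretches with 12 each, 5 on Z and 1 on chromosome 14. The first, at 28849879 to 29156844, held 16 *primpol* peaks in 307 kb, or 52.1 per Mb, close to the density outside stretches on Z (56.9 per Mb). Its *primpol* peaks had heights between 9.63 and 12.2, with a median of 10.3, and a median width of 680 bp. They were spaced at a median of 7.18 kb and together covered 4.24% of the stretch. At 33209477 to 33443430 there were 14 in 234 kb, and the longest piece without a *primpol* peak was only 36.2 kb. A further 14 lay at 30211605 to 30509483, 13 at 15798033 to 16170211 and 12 at 11505852 to 12005187, the longest of those with 12. The median height of *primpol* peaks in these 5 stretches ranged from 10.2 to 11.6. Ranked among the *primpol* peaks of Z, their median percentiles ranged from 19.4 to 62.6.

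The 5 longest stretches with no *primpol* peak inside were the 748 kb on chromosome 27 and the 615 kb on chromosome 11 already described, and a stretch on each of chromosomes 3, 25 and 1. That on chromosome 3 spanned 558 kb at 11707502 to 12265228. Its left end was a wild type peak with a −log10 q-value of 5.22, and both bounding peaks had a *primpol* partner. The stretch on chromosome 25 was at 276971 to 813036 (536 kb) and that on chromosome 1 at 74612296 to 75146851 (535 kb). Of these 5, all but that on chromosome 27 were touched at an end by a *primpol* peak.

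Inside the stretches, *primpol* peaks thinned out with distance from the ends. Their density was 22.8 per Mb (20.4 to 25.4) within 5 kb of an end and 14.0 per Mb (12.1 to 16.05) at 5 to 10 kb. It was 12.6 at 10 to 20 kb, 11.7 at 20 to 50 kb and 8.58 (8.02 to 9.16) beyond 50 kb. Since short stretches have no part that far from an end, the same was examined in the 280 stretches of at least 200 kb. There it was 21.1 per Mb (16.04 to 27.2) within 5 kb and 5.13 per Mb (4.404 to 5.94) at 100 kb or more. The decrease was found on Z (44.3 within 5 kb against 12.5 beyond 50 kb) and on the other chromosomes (18.7 against 6.92). Of the peaks inside, 131 (4.71%) lay within 1 kb of a stretch end.

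The *primpol* peaks inside stretches resembled other *primpol* peaks without a wild type partner in width, and both were much narrower than shared ones. Median widths were 555 bp inside (interquartile range 334 to 857 bp), 549 bp for partnerless peaks elsewhere and 1340 bp for shared peaks. A width of at least 2 kb was reached by 65 of the peaks inside (2.34%), compared with 2.55% and 33.8% in the other sets. By height they ranked low. The median height percentile in the list was 15.2 inside, 36.6 for partnerless peaks elsewhere and 61.7 for shared peaks. Of the peaks inside, 20 (0.719%) were among the highest 10% of the list, which took in 9.78% of the *primpol* peaks on these chromosomes.

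Part of this low rank went with the chromosomes on which the peaks lay. On Z, where heights were low, the median percentile was 2.12 inside stretches and 4.72 at shared peaks. Ranked within their own chromosomes, the peaks inside had a median percentile of 28.98, against 33.9 for partnerless peaks elsewhere and 63.04 for shared peaks. With fold enrichment in place of height the order turned, as the peaks inside had a median percentile of 62.8, partnerless peaks elsewhere 40.6 and shared peaks 53.5. Off Z the values for fold enrichment were 43.5, 38.6 and 52.04. Relative lambda was 0.817 inside stretches, 0.959 at partnerless peaks elsewhere and 1.05 at shared peaks. Relative to the median of the own chromosome the 3 values were 0.939, 0.959 and 1.03, so that input coverage was slightly lower at peaks inside stretches on that scale too. Lambda stood at its floor, the lowest level it takes, at 5.57% of the peaks inside (16.4% of those on Z). This held for 0.810% of partnerless peaks elsewhere and 0.187% of shared peaks. At such peaks input coverage can be lower than lambda shows, and fold enrichment rests on the floor.

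Confidence in the single calls was low. The median −log10 q-value was 1.40 inside stretches, 1.40 at partnerless peaks elsewhere and 1.71 at shared peaks. A value of at least 2 was found for 195 of the peaks inside (7.01%), while 20.4% of all *primpol* peaks on these chromosomes reached it. A value of 5 was reached by none of the peaks inside, by 5 of 17282 partnerless peaks elsewhere and by 127 of 27272 shared peaks. It was thus rare among partnerless peaks anywhere, and its absence inside does not set these peaks apart.

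The highest *primpol* peaks inside stretches lay close together on chromosome 2, where the peak at 33579892 to 33580134 reached 27.5 and that at 33595208 to 33596425 reached 27.3. They ranked 979 and 1038 by height in the *primpol* list. Their stretch, at 33561364 to 33708417, was 147 kb long and held 10 *primpol* peaks. The next were at 130588017 to 130588797 on chromosome 2 (height 26.6), at 231721 to 232512 on chromosome 24 (25.9) and at 13909184 to 13909521 on chromosome 20 (25.8). All 5 lay where lambda was high, at 1.58 to 1.95 times the median of the list, and 4 of them were in the lowest 20% of the list by fold enrichment. Lambda was high over these chromosomes as a whole, with medians of 1.43 on chromosome 2, 1.32 on 24 and 1.53 on 20. Relative to the own chromosome it was 1.11 to 1.43 at the 5 peaks.

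The widest were mostly on Z. They were the 4471 bp at 55531906 to 55536376, the 4242 bp at 58906024 to 58910265, the 3460 bp at 33192611 to 33196070 and the 3343 bp at 49702062 to 49705404. The first of these had a height of 12.0, which was at percentile 71.1 among the *primpol* peaks of Z, and the third had a height of 10, at percentile 13.04. The fifth was on chromosome 4 at 84084105 to 84087446 (3342 bp), with a height of 16.5 and a −log10 q-value of 2.05, and lay 9.77 kb from the end of a stretch of 115 kb.

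The third question was how far the stretches of both genotypes coincided. The *primpol* list had 1247 intervals of at least 100 kb, covering 216 Mb, and the wild type list 1445 covering 247 Mb. They shared 153 Mb, which was 71.0% of the *primpol* and 62.1% of the wild type stretch bases. Over the whole span of each list, stretches covered 21.5% in *primpol* and 24.5% in wild type. The overlap that the coverage of each chromosome would give by itself was not calculated. Of the *primpol* stretches 945 (75.8%) overlapped a wild type stretch, and 938 of the wild type stretches (64.9%) overlapped a *primpol* one. There were 880 stretches of at least 100 kb without a peak in either list, in all 145 Mb, and 131 of these were on Z. In 835 of the wild type stretches (57.8%) a piece of at least 100 kb stayed free of *primpol* peaks. Looked at from the other side, 1644 wild type peaks lay inside *primpol* stretches, which is 4.06% of the wild type list on these chromosomes and 7.61 per Mb.

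The lists differed in where their stretches lay. On Z there were 148 stretches in *primpol*, covering 37.5% of the span, and 228 in wild type, covering 64.7%. Inside the *primpol* stretches of Z lay 67 wild type peaks (2.18 per Mb). These were 5.43% of the 1235 wild type peaks on Z, against 4.01% on the other chromosomes. Inside the wild type stretches of Z lay 909 *primpol* peaks (17.2 per Mb), which were 35.6% of the 2553 *primpol* peaks on Z, against 4.18% on the other chromosomes. The share of the span in stretches went the other way on chromosomes 16 to 33, with 259 *primpol* stretches covering 56.6% and 222 wild type stretches covering 45.3%. Chromosome 20 had 48.1% of its span in stretches in *primpol* and 28.4% in wild type, and chromosome 24 had 61.9% and 39.2%. On chromosomes 1 to 5 stretches covered 10.1% in *primpol* and 12.5% in wild type, and on 6 to 10 they covered 26.5% and 30.5%.

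Some of these differences depended on the length of the lists. When as many *primpol* peaks were taken as the wild type list holds, beginning with the highest −log10 q-values, stretches covered 14.1% of chromosomes 1 to 5 and 33.8% of chromosomes 6 to 10 in *primpol*, and thus more than in wild type. On Z the *primpol* share stayed lower, at 40.3%, and on chromosomes 16 to 33 it stayed higher, at 64.3%. Scaling *primpol* to the input depth of wild type, which can only remove *primpol* peaks, left 28880 of them, against 40529 wild type peaks. Stretches of this shorter list covered 52.5% of Z, still below the 64.7% of wild type. In each other group they covered more than in wild type, from 23.4% against 12.5% on chromosomes 1 to 5 to 74.8% against 45.3% on chromosomes 16 to 33. After scaling, the *primpol* peaks inside wild type stretches numbered 1223, of which 475 were on Z. Their density was 8.97 per Mb on Z against 5.56 per Mb on chromosomes 1 to 5 and less in the other groups, so that Z kept the highest value.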

How the data were processed

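Per the labels and the study's methods, the authors trimmed reads with Trim Galore 0.4.4, aligned them with Bowtie2 2.2.6 to Galgal5 and the *Drosophila* genome, and kept uniquely matching reads. The authors called broad peaks with MACS2 2.1.1.20160309, each genotype against its own input. Per the file headers, q-value cutoffs were 0.05 and 0.1, and the larger of DRIP and input was scaled to the smaller, without a spike-in scale. Peak starts, ends and widths are positions in bp as deposited by the authors, and their other units were kept. The deposited signal is the mean fragment pileup of a peak (height). Fold enrichment, as deposited, divides height by the local background (lambda) after adding 1 to both, and is a ratio. The −log10 p-value and −log10 q-value, also deposited, are the peak caller's own. DRIP tags kept numbered 44735404 in *primpol* and 46425192 in wild type.

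An interval was the next start minus the previous end minus 1. Lambda was calculated back from that ratio. For uniform placement, the expected number of intervals of at least length L on a chromosome with n peaks was taken in closed form as (n − 1)(1 − L/F) to the power n − 2, where F is its peak-free length between the first and last peak. A *primpol* peak was inside when all its bases were. Peaks were partners when they overlapped by at least 1 bp. Shares have 95% Wilson and densities 95% exact Poisson intervals, and ratios of densities intervals on the log scale. For scaling, *primpol* height and lambda were multiplied by 0.763, the ratio of input tags, and peaks whose shifted −log10 p-value reached 2.65, the lowest of wild type, were kept. Named regions were the 10 longest stretches, the 5 with the most *primpol* peaks, the 5 longest without one, the 5 highest and 5 widest *primpol* peaks inside, and the 3 intervals on either side of the threshold. Others named were chosen after their values were seen. The stretches, and the rules, were chosen with earlier results of these data known. Scripts were tested on simulated data. Python 3.11.15, numpy 2.4.6, pandas 2.3.3, scipy 1.17.1 and matplotlib 3.10.9 were used. No annotation of Galgal5 was used here.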

Additional observations from a re-analysis of the deposited data

How the results depend on the processing

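Of 54 alternative values over 9 results, 20 stayed, 33 moved and 1 reversed. Staying meant within 1.5 times the count, or for other values within a 95% interval around the main value. That interval was 1.45 to 1.61 for the ratio to uniform placement and 14.0 to 16.4 for the median percentile. For relative lambda it was 0.802 to 0.832. For the share of stretch bases it was 59.6 to 64.6%, calculated as if for a share of stretches, and is a rough guide only. Except where stated, the cause was not tested. The reversal was the median percentile of *primpol* peaks inside stretches, 15.2 by height and 62.8 by fold enrichment. It was 32.5 by −log10 q-value, 28.98 within the own chromosome and 27.5 without chromosome Z.

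By construction the number of stretches, 1445, changed with the minimum length (4922 at 50 kb, 280 at 200 kb), with fewer chromosomes (796 on chromosomes 1 to 10) and with fewer wild type peaks (2699 when their −log10 q-value had to reach 2). The ratio to uniform placement, 1.53, was 1.23 when it had to reach 1.3, 1.33 with peaks within 1 kb merged, 1.03 at 50 kb, 2.91 at 200 kb and 1.80 without Z.

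The *primpol* peaks inside, 2783, numbered 1802 where the −log10 q-value reached 1.3 and 195 where it reached 2, with 174 stretches holding a peak, and 1223 at wild type input depth, with 686 stretches holding a peak, since these alternatives remove *primpol* peaks. The ratio of densities, 0.193, stayed below 1 throughout. Except against intervals of 10 to 100 kb, the rest keeps shared peaks, which cannot lie wholly inside stretches. Values below 1 were thus favoured by construction. It was 0.210 for midpoints, 0.260 for any overlap, 0.159 and 0.0637 at these q-values, 0.171 with lists of equal number, 0.136 at wild type input depth, 0.153 for peaks at least 10 kb from an end, 0.483 against intervals of 10 to 100 kb and 0.165 without Z.

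The share of stretch bases in *primpol* stretches, 62.1%, was 71.8% at 50 kb, 69.3% with lists of equal number and 80.8% at wild type input depth. Relative lambda, 0.817, was 0.939 relative to the own chromosome and 0.909 without Z. The share of bounding peaks with a partner, 57.95%, was 63.7% within 1 kb and 28.4% at an overlap of 50% of both, against 77.1 and 35.4% of other peaks. Leaving out the longest stretch was chosen after the data were seen, and so was leaving out Z other than for the number of stretches and the ratio of densities.

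No paired analysis was possible because both replicates of a genotype share 1 list, for which reason none was left out. Depth limits all comparisons of the lists, as *primpol* had 1.31 times the input tags of wild type.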
